A study of Mus musculus with 8 samples.

Results

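The genes described here are 42 mouse genes that detect foreign or misplaced nucleic acid or that act downstream of type I interferon. They were chosen by symbol for their known roles, and all 42 were found among the 56691 gene identifiers of the count table and among the 15755 genes with enough reads to be tested. By role they comprise 7 RNA and DNA sensors, 2 sensor adaptors, 5 transcription factors, 22 antiviral effectors and 6 regulators. Messenger RNA had been sequenced from tumours of MC38 cells, a mouse colon adenocarcinoma line, grown in C57BL/6J mice, the strain background of the line. One group of 4 libraries came from control animals and the other group of 4 from animals that were dosed with C26 at 10 mg/kg, on alternate days over 2 weeks. C26 is known here by its code alone, and the sources used here do not give the age of the mice, what the control animals received or whether each library is 1 animal, so p-values measure the spread between these libraries.

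Cells read nucleic acids in the wrong place as a sign of infection or damage. RIG-I (Ddx58) and MDA5 (Ifih1) bind double-stranded or uncapped RNA in the cytosol and signal through MAVS, cGAS (Cgas) binds DNA and signals through STING (Tmem173), and Toll-like receptor 3 (Tlr3) binds double-stranded RNA in endosomes. These routes activate the kinase TBK1 and the factors IRF3 and IRF7, which switch on type I interferon genes. Secreted interferon binds IFNAR1 and IFNAR2, and the factor ISGF3, which contains STAT2 and IRF9, then binds interferon-stimulated response elements (ISRE) in the promoters of antiviral genes, many of them the sensors themselves. In tumours the pathway is known for its part in priming T cells against tumour antigens.

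The promoter sequences of 4 genes are shown, those of the 2 genes that passed the test, Cgas and Samd9l, beside those of 2 standard interferon targets, Isg15 and Ifit1. Each window runs from 250 bases before to 50 bases from the annotated transcript start, on the gene's strand, 5′ to 3′, from RefSeq on GRCm38.p6, and capitals mark the ISRE core, which is GAAA, any 2 bases and GAAA, and which reads as TTTC, any 2 bases and TTTC when it lies on the other strand. The windows lie at chr4:156200769-156201068 for Isg15 (minus strand), chr19:34640639-34640938 for Ifit1 (plus strand), chr9:78443188-78443487 for Cgas (minus strand) and chr6:3399522-3399821 for Samd9l (minus strand).
Isg15: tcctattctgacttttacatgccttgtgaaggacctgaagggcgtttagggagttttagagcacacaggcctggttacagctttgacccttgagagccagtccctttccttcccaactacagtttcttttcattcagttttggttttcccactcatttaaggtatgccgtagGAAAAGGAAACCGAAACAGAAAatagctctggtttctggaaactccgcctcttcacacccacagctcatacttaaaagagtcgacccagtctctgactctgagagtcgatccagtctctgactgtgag
Ifit1: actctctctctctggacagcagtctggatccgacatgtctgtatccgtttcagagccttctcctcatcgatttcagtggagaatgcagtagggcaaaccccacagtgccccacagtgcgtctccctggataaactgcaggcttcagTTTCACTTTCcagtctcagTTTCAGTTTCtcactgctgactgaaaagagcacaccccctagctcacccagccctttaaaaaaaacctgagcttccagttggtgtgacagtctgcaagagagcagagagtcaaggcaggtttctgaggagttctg
Cgas: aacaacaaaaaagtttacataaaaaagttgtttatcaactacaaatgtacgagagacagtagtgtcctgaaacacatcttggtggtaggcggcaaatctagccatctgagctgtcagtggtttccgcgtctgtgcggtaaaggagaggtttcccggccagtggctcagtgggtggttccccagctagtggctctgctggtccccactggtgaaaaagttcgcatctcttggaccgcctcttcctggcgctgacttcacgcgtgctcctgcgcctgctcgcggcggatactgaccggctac
Samd9l: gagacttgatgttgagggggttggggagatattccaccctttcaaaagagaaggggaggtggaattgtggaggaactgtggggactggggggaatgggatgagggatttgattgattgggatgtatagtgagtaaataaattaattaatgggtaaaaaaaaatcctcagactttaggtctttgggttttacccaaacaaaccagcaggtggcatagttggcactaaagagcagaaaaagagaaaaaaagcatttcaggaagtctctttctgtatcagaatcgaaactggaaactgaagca
Isg15 carried 3 overlapping cores, whose first bases lie at -78, -72 and -66 from the start, Ifit1 carried 2 on the other strand, and the Cgas and Samd9l windows held no such core.

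A window was given for 30 of the 42 genes, and the ISRE core was present in 11 of them (36.7%), against 1079 of 27025 genes with a window (3.99%). The 11 were Ddx58, Ifih1, Stat2, Ifit1, Ifit3, Ifit3b, Isg15, Oas1a, Oas3, Rsad2 and Bst2. The neighbours Ifit3 and Ifit3b each held 2 cores with the same letters and the same spacing, at -156 and -122 from the start in Ifit3 and at -188 and -154 in Ifit3b. A match is a description of the letters in this window and not of binding.

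**Figure D1:**
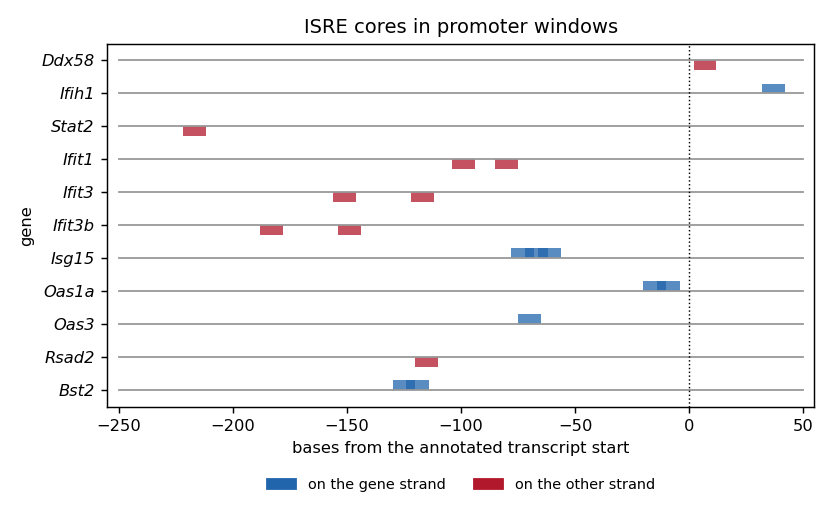
Position of each ISRE core in the promoter windows of the 11 genes that hold one, with the distance in bases from the annotated transcript start on the x axis and 1 line per gene; blue marks lie on the gene's strand and red marks on the other. The cores of Ifit3 and Ifit3b share their spacing, and those of Ddx58 and Ifih1 lie after the start.

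Of the 42 genes, 2 rose in C26 and none fell by edgeR's quasi-likelihood test at an adjusted p under 0.05. The 2 that rose were Cgas, the cytosolic DNA sensor, and Samd9l, an interferon-induced factor that blocks poxvirus replication. Over all tested genes, 574 rose (3.64%) and 649 fell (4.12%), or 7.76% in either direction, so that 2 of 42 (4.76%) is near the share in all genes. At an unadjusted p under 0.05, 10 of the 42 were higher (23.8%) against 13.1% of all genes, and 0 were lower against 12.4% of all genes. The 10 were Ddx58, Ifih1, Cgas, Tlr3, Ifit2, Mx1, Oas2, Samd9l, Adar and Dtx3l. The fitted log2 fold changes were small, from -0.28 for Ifi44 to 0.37 for Cgas. Their median was 0.10, against 0.01 for all tested genes, and 30 of the 42 (71.4%) lay above 0 against 51.0% of all genes. Scaling by total library size instead of TMM moved the median of all genes to 0.08 and that of the 42 to 0.17.

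**Figure D2:**
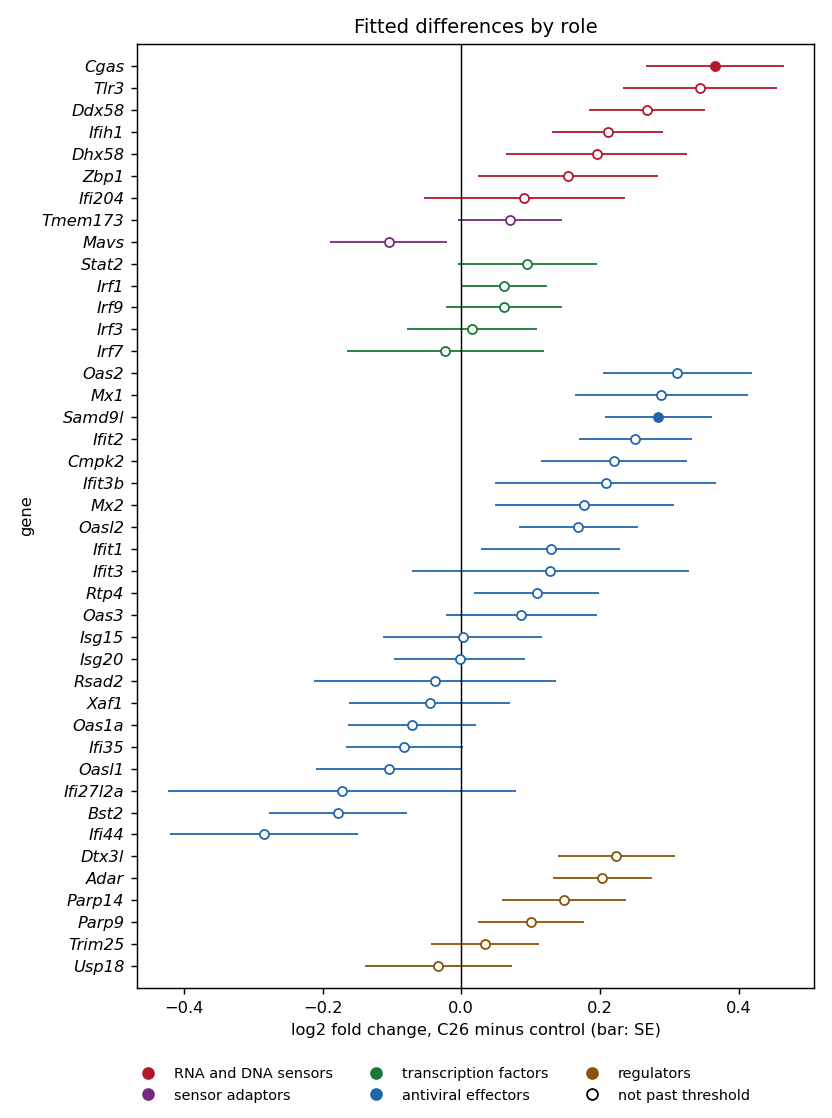
Fitted log2 fold change of each of the 42 genes (x axis, C26 minus control) with its SE as a bar, grouped and coloured by role; filled points passed the adjusted threshold. Cgas at 0.37 and Samd9l at 0.28 are filled, all 7 sensors lie above 0, and the effectors spread from -0.28 to 0.31.

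All 7 sensors had a higher mean in C26, with a median log2 fold change of 0.21, while 51.0% of all tested genes lay above 0. Of the 7, 1 rose past the threshold (14.3%), against 3.64% of all tested genes. The 7 were read in the same 8 libraries, so their common direction is not 7 separate observations. Cgas stood at 29.3, 36.4, 30.8 and 32.7 CPM (the reads of a gene as a share of its library's TMM-scaled total) in control libraries 1 to 4 and at 36.4, 46.0, 46.5 and 37.4 CPM in C26 libraries 1 to 4. The groups met at 36.4 CPM, the highest control and the lowest C26 library, and C26 libraries 2 and 3 were the highest. The fitted rise was 0.37 on the log2 scale (SE 0.0992, adjusted p = 0.0343 by edgeR's quasi-likelihood test), 1.29-fold between group means. Those 2 libraries also had the most skeletal muscle RNA, with a summed level of 12 muscle genes of 727.5 and 158.3 CPM, against 10.5 to 49.3 CPM in the other 6 libraries. Without C26 libraries 2 and 3 together the Cgas difference was 0.19 (adjusted p = 0.285 by edgeR), and with the muscle level as a covariate it was 0.07 (adjusted p = 0.814 by edgeR). The muscle level partly tracked the groups, and the calls over the whole table went from 1223 to 123 with this covariate. The part of muscle RNA in the Cgas difference was not tested. The Cgas call was also lost when control library 1, 3 or 4 or C26 library 2 or 3 was left out (differences of 0.31 to 0.42 over all 8 such fits, edgeR adjusted p up to 0.11), and with offsets for length and GC of the transcript (0.26, edgeR adjusted p = 0.134).

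The RNA sensors followed the same order of groups without passing the threshold. Ddx58 had 107.5, 137.9, 114.1 and 104.6 CPM in control libraries 1 to 4 and 138.7, 136.5, 135.1 and 148.7 CPM in the C26 libraries. Control library 2 lay inside the C26 range and the other 3 controls lay below it, and the difference was 0.27 (SE 0.0835, edgeR adjusted p = 0.0592). Ifih1 had 52.6, 59.0, 50.3 and 51.9 CPM in control and 54.5, 62.0, 63.9 and 67.0 CPM in C26. C26 library 1 fell within the control range, and the difference was 0.21 (SE 0.0804, edgeR adjusted p = 0.111). Tlr3 had 29.8, 40.6, 31.9 and 26.2 CPM in control and 43.9, 37.8, 41.6 and 40.0 CPM in C26. Again control library 2 lay within the C26 range, and the difference was 0.34 (SE 0.111, edgeR adjusted p = 0.0676). Leaving control library 2 out brought Ddx58 and Tlr3 past the threshold, at the lowest edgeR adjusted p of any single library left out, 0.018 and 0.0141. Leaving out any other single library left both short of it, with edgeR adjusted p up to 0.167 and 0.166. With the length and GC offsets, edgeR adjusted p was 0.249 for Ddx58, 0.653 for Ifih1 and 0.382 for Tlr3, and the Ifih1 difference was 0.07. With the muscle covariate, edgeR adjusted p was 0.453 for Ddx58, 0.608 for Ifih1 and 0.52 for Tlr3.

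The remaining sensors were Dhx58 (LGP2), a partner of the RIG-I family, Zbp1, which binds Z-form nucleic acid and starts necroptosis, and Ifi204, a mouse DNA sensor of the PYHIN family. Their fitted differences were 0.20, 0.15 and 0.09 with edgeR adjusted p of 0.371, 0.492 and 0.737, and their groups overlapped. Ifi204 turned to -0.08 with the muscle covariate and to -0.10 without C26 libraries 2 and 3 together, so that the common direction of the sensors did not extend to it under those settings. Of the Ifi204 50-base stretches, 14.8% also occur in Ifi211, and reads from them could be counted for either.

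**Figure D3:**
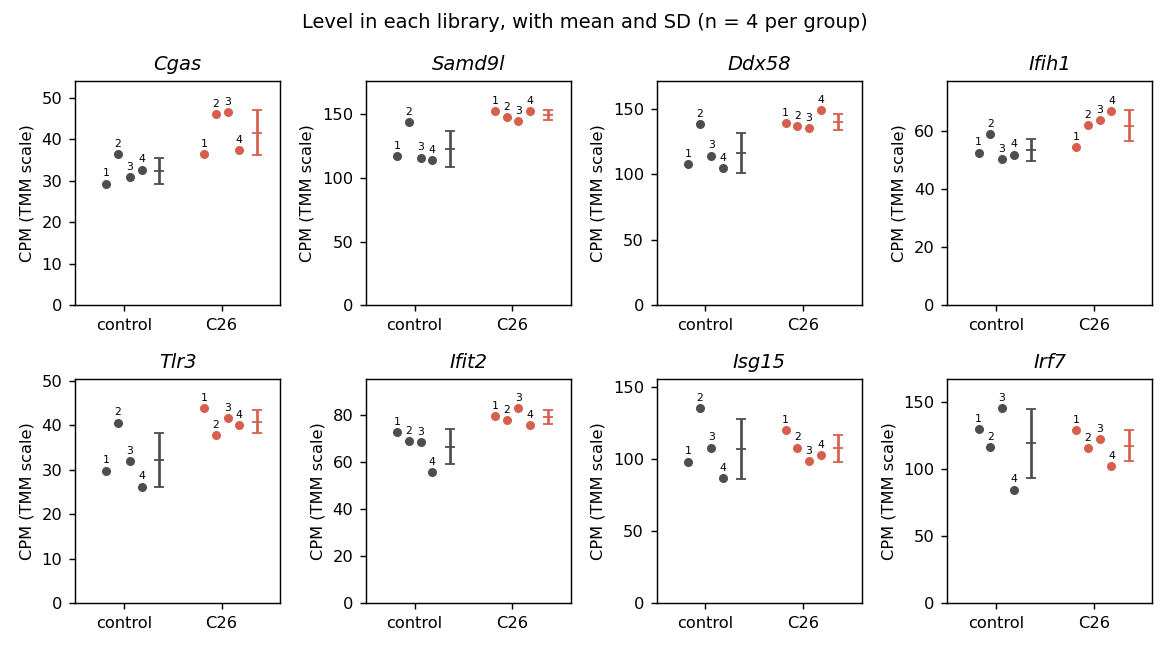
Level of 8 genes in every library, with the library number beside each point and the mean and SD (n = 4 per group) as a bar; the y axis is CPM on the TMM scale and starts at 0. Samd9l and Ifit2 show separate groups, control library 2 reaches the C26 points for Ddx58 and Tlr3, and Isg15 and Irf7 overlap throughout.

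Neither adaptor passed the threshold. Mavs, which relays RIG-I and MDA5 signals from the mitochondrial surface, stood at 40.2, 33.1, 39.0 and 41.2 CPM in control and at 33.2, 36.8, 37.4 and 35.5 CPM in C26, a difference of -0.10 (SE 0.0843, edgeR adjusted p = 0.464). Tmem173, which encodes STING, stood at 40.0, 43.6, 42.4 and 39.3 CPM in control and at 46.2, 39.8, 44.2 and 43.5 CPM in C26, a difference of 0.07 (SE 0.0755, edgeR adjusted p = 0.597). For both genes the groups overlapped. The opposite placing of control library 2 stands out, since it was the lowest control for Mavs and the highest control for Tmem173 and most of the 42 genes.

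None of the 5 transcription factors passed the threshold, and their fitted differences ran from -0.02 to 0.10. Irf3, the latent factor that sensors activate, had 46.1, 59.7, 50.9 and 46.5 CPM in control and 59.0, 47.5, 49.2 and 49.8 CPM in C26 (0.02, SE 0.094, edgeR adjusted p = 0.937). Irf7, the interferon-induced factor that amplifies the response, had 130.1, 116.6, 145.9 and 84.8 CPM in control and 129.2, 116.0, 122.8 and 102.4 CPM in C26 (-0.02, SE 0.142, edgeR adjusted p = 0.941). Both genes had groups that overlapped, with control library 4 the lowest of all for Irf7. The DNA-binding part of ISGF3, Irf9, had 47.1, 58.9, 51.6 and 52.5 CPM in control and 56.1, 57.8, 48.3 and 57.1 CPM in C26 (0.06, SE 0.0841, edgeR adjusted p = 0.684). Its partner Stat2 had 132.6, 161.3, 135.7 and 113.5 CPM in control and 159.1, 140.9, 125.7 and 154.8 CPM in C26 (0.10, SE 0.0996, edgeR adjusted p = 0.585). These groups overlapped too, and control library 2 held the highest level of either gene. The fifth factor, Irf1, was the steadiest, at 182.0 ± 6.28 CPM in control tumours and 189.9 ± 3.39 CPM in C26 tumours (SD, n = 4 each), and its difference of 0.06 did not pass (edgeR adjusted p = 0.569).

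Among the 22 antiviral effectors, 1 rose and none fell, 13 lay above 0 and 9 below, and the median log2 fold change was 0.10. Samd9l stood at 117.0, 143.6, 115.8 and 114.1 CPM in control libraries 1 to 4 and at 152.2, 147.9, 144.7 and 152.4 CPM in C26. All 4 C26 libraries lay above all 4 controls, although control library 2 was within a few CPM of them. The rise was 0.28 (SE 0.0775, adjusted p = 0.0351 by edgeR's quasi-likelihood test), 1.22-fold between group means. It was lost when any library other than control library 2 was left out, with edgeR adjusted p from 0.0505 to 0.108, and without C26 libraries 2 and 3 together (edgeR adjusted p = 0.0634). The difference itself was 0.31 in that fit and 0.25 to 0.36 with 1 library left out. With the muscle covariate it was 0.19 (edgeR adjusted p = 0.408), and once offsets corrected for length and GC of the transcript it was 0.10 (edgeR adjusted p = 0.514).

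Ifit2, which binds viral RNA and blocks its translation, was the other gene of the 42 with separate groups. It had 72.9, 68.9, 68.5 and 55.7 CPM in control and 79.7, 78.0, 83.1 and 75.9 CPM in C26. The lowest C26 library lay above the highest control, and the difference was 0.25 (SE 0.0815, edgeR adjusted p = 0.0685). Thus 2 of 42 genes (4.76%) had separate groups with C26 higher and 0 with C26 lower, against 7.91% and 8.14% of all tested genes. The other IFIT genes lay at 0.13 for Ifit1, 0.13 for Ifit3 and 0.21 for Ifit3b with SEs of 0.1, 0.2 and 0.159, and none passed. Ifit3 shares 51.2% of its 50-base stretches with Ifit3b, so these 2 values cannot be told apart with confidence.

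The 2′-5′ oligoadenylate synthetases make the messenger that activates RNase L. Their fitted differences did not share a direction, since Oas2 lay at 0.31, Oas3 at 0.09 and Oas1a at -0.07, and none passed. Oas2 had 103.3, 140.3, 121.8 and 99.6 CPM in control and 153.0, 143.3, 123.2 and 157.9 CPM in C26 (edgeR adjusted p = 0.088), and C26 library 3 lay among the controls. Oas1a turned to 0.0028 with total library size, Oas3 turned to -0.12 with the muscle covariate, and 57.6% of the Oas1a stretches occur in Oas1g. Of the related Oasl genes, Oasl2 lay at 0.17 and Oasl1, which in mice holds back Irf7 translation, at -0.10. Neither passed.

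Mx1 is a GTPase that blocks influenza virus, although C57BL/6 mice carry a defective allele, and the annotation lists Mx2 as a polymorphic pseudogene. Mx1 stood at 53.0 ± 11.4 CPM in control tumours and 64.8 ± 2.34 CPM in C26 tumours (SD, n = 4 each), a difference of 0.29 (edgeR adjusted p = 0.169), and Mx2 differed by 0.18 (edgeR adjusted p = 0.414). Isg15 and Isg20 had the fitted differences closest to 0 of the 42. Isg15, a ubiquitin-like protein attached to other proteins, had 98.2, 135.5, 107.9 and 87.0 CPM in control and 119.9, 108.0, 98.7 and 102.8 CPM in C26, a difference of 0.0021 with an SE of 0.115 (edgeR adjusted p = 0.995). Both the highest and the lowest of the 8 values came from the control group. Isg20, an exonuclease, differed by -0.0024 (SE 0.094, edgeR adjusted p = 0.992).

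Rsad2 (viperin, which makes a chain-terminating nucleotide) and its neighbour Cmpk2 (a mitochondrial nucleotide kinase) differed by -0.04 and 0.22, and neither passed. Rsad2 varied more among C26 libraries, from 44.0 to 82.5 CPM, than among controls, from 68.3 to 73.6 CPM. Bst2 (tetherin, which holds budding virus on the cell), Ifi27l2a, Xaf1 and Ifi35 all lay below 0, at -0.18, -0.17, -0.05 and -0.08, and Rtp4 lay at 0.11, with none past the threshold. Scaling by total library size turned Xaf1 to 0.03, and the offsets for length and GC content turned Bst2 to 0.0047, Ifi27l2a to 0.04 and Ifi35 to 0.01.

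Ifi44 had the lowest fitted difference of the 42. It stood at 168.9, 165.0, 170.9 and 106.3 CPM in control and at 126.2, 134.0, 110.5 and 131.4 CPM in C26, a difference of -0.28 (SE 0.135, edgeR adjusted p = 0.212). Control libraries 1 to 3 lay above all C26 libraries and control library 4 lay below them. Without control library 4 the difference was -0.42 and passed (edgeR adjusted p = 0.00975), and leaving out each other library gave edgeR adjusted p up to 0.39. Its neighbour and paralog Ifi44l, named here after its values were seen, split the libraries in the same way. Ifi44l (chr3:151758737-151762892 on GRCm38, minus strand, 8776 bases from Ifi44) had 713, 297, 766 and 3 counts across control libraries 1 to 4, against 0, 0, 2 and 4 counts across the C26 libraries. It had reads in 3 controls and was nearly absent from control library 4 and every C26 library, and the filter on low counts left it untested in the main fit. Among the alternatives it passed only in the edgeR fit without control library 4. Of the 56691 identifiers it was the sole one with at least 100 counts in some libraries and at most 5 in all the others. Those limits were set after its values were seen, and more genes may qualify at other limits. Ifi44 itself lay at 165.0 to 170.9 CPM in the 3 libraries with Ifi44l reads and at 106.3 to 134.0 CPM in the other 5. No 50-base stretch of either gene occurs in another gene's transcripts.

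The 6 regulators had a median log2 fold change of 0.12 and none passed. Adar, which edits double-stranded RNA and so keeps MDA5 quiet, had 61.7, 64.7, 60.2 and 58.3 CPM in control and 64.1, 72.5, 71.3 and 74.2 CPM in C26 (0.20, SE 0.071, edgeR adjusted p = 0.0863). Dtx3l, a ubiquitin ligase, had 50.8, 50.2, 42.9 and 47.1 CPM in control and 49.3, 55.4, 56.2 and 62.1 CPM in C26 (0.22, SE 0.0837, edgeR adjusted p = 0.106). For both genes C26 library 1 alone lay within the control range. Parp9, the partner of Dtx3l, lay at 0.10 and Parp14, a mono-ADP-ribosyltransferase, at 0.15. Trim25, a ubiquitin ligase that acts on RIG-I, lay at 0.03, and Usp18, which removes ISG15 and damps receptor signalling, lay at -0.03. Exons of Parp9 and Dtx3l overlap on opposite strands by 458 bases and those of Adar and Chrnb2 by 1365 bases, and the sources used here do not say whether counting used strand.

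Levels between genes were compared per kilobase of the principal transcript. In control the highest was Bst2 at 366.4 CPM per kb, then Ifi27l2a at 187.7, Isg15 at 141.7 and Oasl2 at 91.2 CPM per kb. In C26 the same 4 genes stood at 324.0, 166.9, 142.0 and 102.5 CPM per kb. The sensors Tlr3 and Cgas were the lowest, at 7.29 and 7.98 CPM per kb in control and 9.26 and 10.3 CPM per kb in C26, against a control median of 24.2 CPM per kb over the 42 genes. All 42 were well covered, with at least 249 counts in every library.

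The libraries of the control group differed among themselves more than those of the C26 group. Control library 2 was the highest control for 35 of the 42 genes and control library 4 the lowest for 31, whereas these libraries were the highest and lowest controls for 23.6% and 29.5% of all tested genes at 1 CPM or more. The median deviation of the 42 genes from their mean log2 level over all 8 libraries was -0.10, 0.16, -0.04 and -0.25 across the control libraries, and it was 0.08, 0.02, 0.04 and 0.09 in the C26 libraries. All C26 medians thus lay between those of control libraries 2 and 4. The coefficient of variation was larger in control for 32 of the 42 genes, against 39.2% of all tested genes at 1 CPM or more. Its median was 13.9% in control and 8.44% in C26. The median difference of 0.10 was 0.04 without control library 4 and 0.18 without control library 2.

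**Figure D4:**
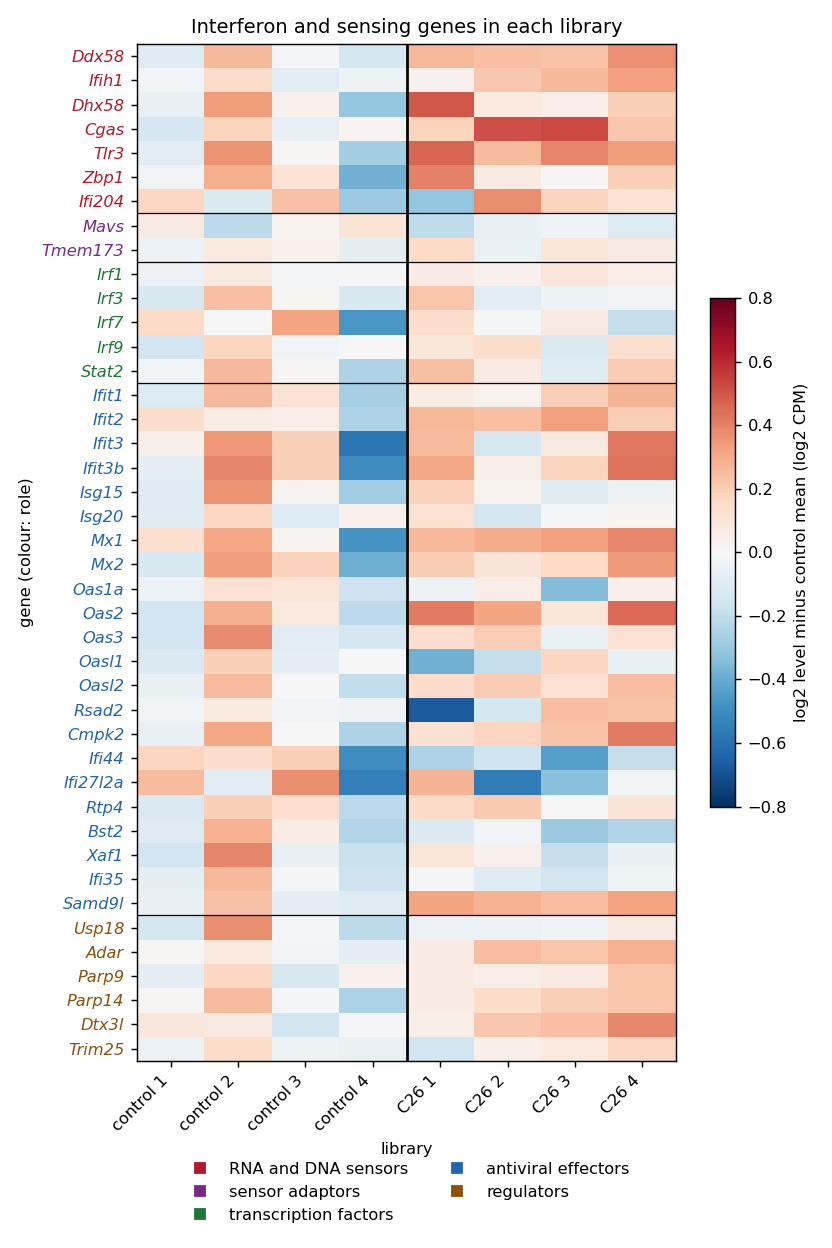
Level of each of the 42 genes (rows, label colour by role) in each library (columns) as log2 CPM, with 0.1 CPM added, minus the control mean of that gene; red is higher and blue lower, and the vertical line divides control from C26. The column of control library 2 is mostly red and that of control library 4 mostly blue, with medians on this scale of 0.24 and -0.20.

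Longer transcripts had higher fold changes, in these genes and in the table as a whole. Spearman's rho of log2 fold change with transcript length was 0.57 over the 42 genes and 0.43 over 13985 tested genes at 1 CPM or more, and with GC content it was -0.51 and -0.25. These are correlations across genes that share the same 8 libraries. The 21 genes with transcripts longer than 2626 bases had a median of 0.20 and included all 10 at an unadjusted p under 0.05, while the 21 shorter ones had a median of 0.02 and included 0 of the 10. Among all tested genes at 1 CPM or more, the medians on the longer and shorter side of that length were 0.08 and -0.09. When offsets for length and GC of each transcript were added, a setting chosen after seeing the data, 0 of the 42 passed by edgeR. Their median was then 0.07 and that of all genes -0.02, and 33 of the 42 lay above 0 against 30 without offsets. At an unadjusted p under 0.05, 3 were then higher and 1 lower.

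**Figure D5:**
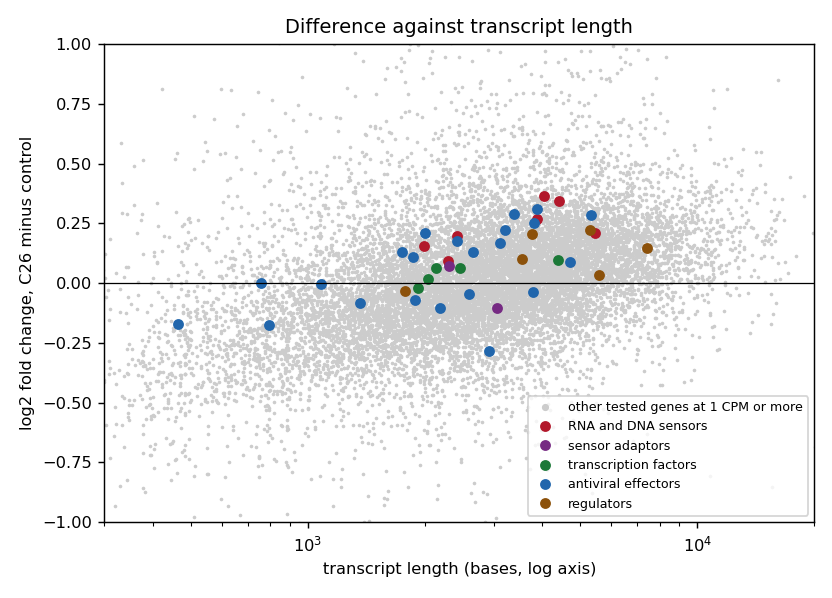
Log2 fold change (C26 minus control) against transcript length in bases (log axis) for the 42 genes, coloured by role, and for the other tested genes at 1 CPM or more in grey. Both clouds climb from left to right, with rho of 0.57 and 0.43; grey points beyond 1 or -1 or past the ends of the x axis are not drawn.

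Interferon ligand genes had almost no counts. None of the 21 listed passed the filter and 13 had 0 counts in every library, where 3 counts, the limit that a count of 0 allows, make 0.137 to 0.182 CPM. Of the 50-base stretches of these 13 genes, 12.2% (Ifna2) to 67.4% (Ifna1) also occur in other genes. Reads from such stretches may have been left out or counted for another gene, which that limit does not cover. No such stretch of Ifnb1 is shared. Ifnb1, the type I interferon that sensors induce first, had 7, 0, 3 and 2 counts in control libraries and 2, 4, 4 and 4 counts in C26 libraries. The 18 type I ligand genes together had 17, 4, 13 and 10 counts in control and 6, 15, 12 and 11 counts in C26. Control library 2, the highest of the 4 controls for 35 of the 42 genes, had the fewest ligand counts. Ifng, the type II interferon, had 0 counts in all controls and 0, 5, 1 and 0 counts in C26. A difference in ligand was not detectable at this depth.

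Of 14 tested receptor and JAK-STAT genes, 1 rose and none fell. It was Jak1, a kinase bound to the interferon receptor, at 153.8 ± 3.54 CPM in control tumours and 179.8 ± 9.03 CPM in C26 tumours (SD, n = 4 each), a difference of 0.23 (edgeR adjusted p = 0.0435). The receptor chain gene Ifnar1 had 57.2, 54.7, 59.9 and 50.8 CPM in control and 68.5, 60.2, 62.3 and 73.8 CPM in C26, separate groups with a difference of 0.25 (SE 0.0812, edgeR adjusted p = 0.0685). Its partner Ifnar2 differed by -0.08 (edgeR adjusted p = 0.65). Among 27 genes that link sensors to interferon, 0 passed by edgeR (4 were higher and 1 was lower at an unadjusted p under 0.05), and the kinase gene Tbk1 differed by 0.08 (edgeR adjusted p = 0.529). DESeq2 and limma-voom, which called 14 and 12 genes over these lists against 7, called Traf3 and Irf5 in this group.

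Of 14 tested genes for nucleic acid clearance, none rose and 1 fell. Rnaseh2a encodes the catalytic subunit of RNase H2, which removes ribonucleotides from DNA and whose loss in humans causes an interferon disease. It stood at 81.2, 80.0, 82.1 and 84.4 CPM in control and at 63.2, 56.1, 64.9 and 58.8 CPM in C26. The groups were far apart, and the fall was -0.43 (SE 0.069, adjusted p = 0.00295 by edgeR's quasi-likelihood test).

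Of 49 other interferon-induced genes, 4 rose (8.16%) and 1 fell, against 3.64% and 4.12% of all tested genes. Their median log2 fold change was 0.12. At an unadjusted p under 0.05 by edgeR, 14 were higher (28.6%, against 13.1% of all genes). At that limit 5 of the 49 were lower, against 12.4% of all genes. Znfx1, an RNA helicase-like sensor of the mitochondrial surface, had 61.1, 68.8, 59.7 and 60.4 CPM in control and 78.6, 80.0, 79.4 and 80.3 CPM in C26 (0.35, SE 0.0684, edgeR adjusted p = 0.00774). Its C26 libraries lay within 2 CPM of each other and above all controls. Eif2ak2 (PKR, a kinase that stops translation on sensing double-stranded RNA) rose by 0.32 (edgeR adjusted p = 0.0299), the helicase gene Helz2 by 0.33 (edgeR adjusted p = 0.0324) and Trim30d by 0.41 (edgeR adjusted p = 0.0456). Apol9b, an apolipoprotein L gene, fell by 0.34 on the log2 scale (edgeR adjusted p = 0.0272), but 52.3% of its 50-base stretches occur in Apol9a. Over all 104 tested genes of these lists 7 passed in either direction (6.73%), near the 7.76% of all genes. Rnaseh2a and Znfx1 passed under 17 of 18 alternatives, the exception being the muscle covariate, where edgeR adjusted p was 0.0997 and 0.183. The other 5 passed under 7 to 10 of 18, and each was lost when some single library was left out, with edgeR adjusted p up to 0.116.

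Markers of cell types were read beside these genes, and in bulk tissue fewer cells of a type and less RNA per cell cannot be told apart. The 10 markers of colon epithelium, checked because the label gives a colon line, summed to 7.45 to 10.7 CPM in control and 5.45 to 9.01 CPM in C26. Lgals4 at 2.65 to 6.06 CPM and Cdh1 at 2.39 to 3.81 CPM made up most of this and were the 2 that could be tested, while Cdx2 was at 0 and Krt8, Krt18 and Krt19 were at 0 to 0.106 CPM. The summed level of 12 leukocyte and macrophage genes was 1159.0 to 1722.9 CPM in control and 1020.2 to 1537.5 CPM in C26, lowest among controls in library 4, and 0 of 12 passed. Fibroblast markers summed to 3314.7 to 5122.0 CPM in control and 5607.2 to 7828.1 CPM in C26, with 1 of 10 past the threshold. Conventional dendritic cell markers summed to 28.1 to 29.4 CPM and 33.2 to 35.1 CPM, carried by Clec9a and Zbtb46. Of the 4 tested, Clec9a (0.23), Zbtb46 (0.33) and Batf3 (0.065) lay above 0, Flt3 lay at -0.91, and 0 passed the threshold. Plasmacytoid dendritic cell markers summed to 42.1 to 51.0 CPM and 30.3 to 38.7 CPM, carried by Cox6a2 and Lair1, with 1 of 3 tested lower past the threshold (Cox6a2), while the defining gene Siglech stood at 0.304 to 1.73 CPM. T and NK cell markers summed to 3.88 to 8.25 CPM and 4.15 to 5.12 CPM. Red blood cell genes summed to 22.9 to 100.1 CPM in control and 8.41 to 11.9 CPM in C26, with 1 of 5 lower past the threshold. Endothelial genes summed to 55.8 to 95.6 CPM and 85.3 to 101.6 CPM, with 1 of 7 tested higher past it. Neutrophil genes, with Ly6g at 0, summed to 5.87 to 10.2 CPM in C26, a range that overlapped that of control, and B cell genes to 2.79 to 4.02 CPM in control and 3.27 to 4.61 CPM in C26. The part of these differences, and of the muscle RNA, in the values of the 42 genes was not tested further. Only the muscle covariate, which partly tracked the groups, and fits without some libraries were run.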

How the data were processed

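Polyadenylated RNA from 4 control and 4 C26 tumours was sequenced from both ends on a NextSeq2000 with a strand-marking TruSeq kit, per the labels' protocols and the series design text. The deposited unit is a raw count per Ensembl gene, made by the authors. The submitters' processing notes list featureCounts 2.0.1, HISAT2 2.2.1 and Trim Galore 0.6.7 with mm10, whereas the design text names Cutadapt, STAR and RSEM. The sources used here do not give the annotation release, the strand setting or the treatment of reads with several matches. Reads of near-identical genes and of overlapping antisense exons may therefore be split either way.

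Symbols came from GENCODE M21 for 52073 of 56691 identifiers, and the rest held 0.769% of counts. Totals ran from 17075176 to 21517425 counts per library, and limits from counts cover counting error alone. No pair of libraries agreed within sampling noise (lowest chi-square per degree of freedom 6.2). Counts were filtered with filterByExpr, scaled by TMM and tested with edgeR 4.0.16 (glmQLFit robust, glmQLFTest, two-sided, R 4.3.3) on the whole table, and the threshold was a p of 0.05 after Benjamini-Hochberg adjustment. "Rose", "fell" and "passed" refer to it. No set test was run. Alternatives were total library size, RLE factors, 1 CPM in 4 libraries, no low-count filter, DESeq2 1.42.0, limma-voom (limma 3.58.1), the replicate number as a block, a muscle covariate, leaving out libraries and, added after seeing the data, offsets for transcript length and GC content. The test was checked on simulated counts. It recovered 25.4% of 67 changes of 1.25-fold, 64.6% of 65 of 1.5-fold and 75.4% of 65 of 2-fold. A change as small as 1.25-fold was thus often missed.

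The 42 genes, the 5 pathway lists and the 11 marker lists were chosen with earlier results of these data known. A gene of the pathway lists that was to be named is not reported here. Of the 42, values in every library are given for genes past the threshold, with separate groups or central to signalling, and for others chosen after their values were seen (Isg15, Oas2, Ifi44, Adar and Dtx3l). Of the pathway lists, genes past the threshold and a few central ones are named, some with their mean or fold change alone, and Ifi44l was added after its values were seen. Transcript lengths are those of principal GENCODE M21 transcripts on GRCm38, and promoter windows are RefSeq's on GRCm38.p6, not tied to the transcript start used in these tumours. Of 37 windows, 34 had their last 20 bases in a GENCODE transcript of the same gene.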

Additional observations from a re-analysis of the deposited data

Results flagged for a closer look

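Among 84 sets of 4 libraries (42 genes in 2 groups), 7 held a library far from the other 3. The cutoff flags about 1 in 20 sets of independent normal values. These sets share the same 8 libraries, so 7 of 84 cannot be judged against that rate. The share of such sets over all tested genes was not counted. In 5 of the 7 it was control library 2 as the highest control. For Samd9l it held 143.6 CPM against 114.1 to 117.0 CPM in the other controls, and for Oas3 58.9 against 40.7 to 42.6 CPM. For Xaf1 it held 118.4 against 79.8 to 86.4 CPM, for Trim25 155.3 against 134.9 to 136.3 CPM, and for Rsad2 73.6 against 68.3 to 68.5 CPM. Ifi44 was low in control library 4, at 106.3 CPM against 165.0 to 170.9 CPM. Usp18 was high in C26 library 4, at 49.0 CPM against 45.1 to 45.5 CPM.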

How the results depend on the processing

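The count of 2 genes past the threshold, both higher in C26, was the same with RLE factors, with 1 CPM in 4 libraries and with the replicate block (1184 genes called in all). Deviations from the group mean in same-numbered libraries 1 to 4 correlated weakly, at -0.0234, 0.135, -0.0195 and 0.0934. For control libraries 2 and 4 the C26 library of the same number correlated best, and for control libraries 1 and 3 another did. The table's 1223 calls became 1949 with total library size (78.7% higher against 46.9%), 1948 with no low-count filter, 123 with the muscle covariate (67.5% higher) and 587 with length and GC offsets (31.3% higher). DESeq2 called 1813 genes, limma-voom 1536 and the test without C26 libraries 2 and 3 called 897. Of the 42, 9 rose with total library size, 7 rose and 1 fell (8 in all) with no filter, and 4 rose by DESeq2 and by limma-voom. By edgeR 0 passed with the muscle covariate, without C26 libraries 2 and 3 together and with the offsets, where at an unadjusted p under 0.05 there were 0 higher and 1 lower, 5 and 0, and 3 and 1. Pathway calls, 7 at first, were 22, 21, 14 and 12 with total library size, no filter, DESeq2 and limma-voom, 0 with the covariate (17 at an unadjusted p under 0.05) and 2 with the offsets. Leaving out 1 library gave 643 to 1457 genes, 0 to 5 of the 42 in all and higher, 0 to 1 lower, 2 to 12 pathway genes and a median of 0.04 to 0.18. By edgeR 0 of the 42 passed when control library 1, control library 3, C26 library 2 or C26 library 3 was missing (7 to 10 at an unadjusted p under 0.05, in either direction), 1 when control library 4 (Ifi44, lower) or C26 library 4 (Cgas) was, 4 when C26 library 1 was and 5 when control library 2 was. The median of the 42 lay above 0 under every alternative run.

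Log2 fold changes that turned sign lay between -0.18 and 0.15 at first, and none passed on either side. With RLE factors, Isg15 -0.0042. With total library size, Irf7 0.050, Isg20 0.071, Oas1a 0.0028, Rsad2 0.034, Xaf1 0.028 and Usp18 0.040. With no low-count filter, Isg20 0.0008. With DESeq2, Isg15 -0.0038. With limma-voom, Isg15 -0.0072, Isg20 0.017 and Rsad2 0.015. With the muscle covariate, Ifi204 -0.082, Irf3 -0.023, Irf9 -0.017, Isg15 -0.16, Isg20 0.011, Oas3 -0.12, Ifi27l2a 0.25, Rtp4 -0.016, Trim25 -0.034 and Ifnar2 0.098. With C26 libraries 2 and 3 left out, Ifi204 -0.10, Isg20 0.070, Ifi27l2a 0.086 and Xaf1 0.0001. With length and GC offsets, Irf7 0.043, Isg20 0.12, Ifi27l2a 0.045, Bst2 0.0047, Ifi35 0.012, Parp14 -0.017 and Trim25 -0.076. With 1 library left out the ranges were Ifi204 -0.0078 to 0.21, Irf3 -0.057 to 0.098, Irf7 -0.16 to 0.086, Ifit3 -0.029 to 0.24, Isg15 -0.085 to 0.13, Isg20 -0.045 to 0.052, Oas1a -0.12 to 0.014, Rsad2 -0.15 to 0.12, Xaf1 -0.10 to 0.10, Ifi35 -0.14 to 0.0074, Usp18 -0.10 to 0.10, Trim25 -0.011 to 0.092, Ifnar2 -0.14 to 0.011. The cause was not tested.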

Other observations

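Ifi44l was read in 3 control libraries and nearly absent from the other 5 of all 8, a split that crosses the treatment groups, and GENCODE M21 tags its entry as a reference genome error. What sets the split was not tested. Trex1, the DNA exonuclease that limits cGAS, had 0 counts in every library, and 95.8% of its 50-base stretches also occur in Atrip, so that no statement on its level can be made.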
